A study of Arabidopsis thaliana with 12 samples.

Results

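The data described here are the transcript levels of 5 Arabidopsis thaliana genes out of the 32833 genes counted in seedlings 12 days after germination. They include both nucleolin genes, NUC1 (AT1G48920, also NUC-L1) and NUC2 (AT3G18610, also NUC-L2), and both fibrillarin genes, FIB1 (AT5G52470) and FIB2 (AT4G25630). The last is AT2G01021, a short annotated gene inside the ribosomal DNA (rDNA) at the start of chromosome 2. The nucleolins and fibrillarins were chosen by identifier, with earlier results of these data known, so their p-values are not independent of that choice. AT2G01021 was chosen from its measured values, because its counts differ between groups, so its levels are given as a description with no test. RNA sequencing covered 12 libraries in 4 groups of 3. The fas2-4 libraries come from a mutant of FAS2, part of the CAF-1 complex that places histone H3.1 at replicating DNA, and were set against wild-type Columbia-0 of the same experiment (Col-0 set 2). Libraries labelled hira-1 come from a mutant of HIRA, a chaperone of histone H3.3, and were set against a separate wild-type set (Col-0 set 1). Every group was raised on soil with long days near 21 °C, from seed kept at 4 °C for 4 days. Nothing in the labels says whether the 3 libraries of a group came from separate plants, so p-values measure the spread between libraries, which may be technical.

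The nucleolus is the site where RNA polymerase I transcribes the rRNA genes, which lie in long tandem arrays, and where the precursor is cut, modified and packed into ribosomal subunits. Nucleolin is an abundant RNA- and DNA-binding nucleolar protein that works in rRNA gene transcription and in the first cuts of the precursor. In Arabidopsis, NUC1 is the gene active in most tissues, and NUC2 is usually low and is known to come up when NUC1 is lost. Fibrillarin is the methyltransferase of box C/D snoRNPs, the particles whose guide RNAs direct methylation of the rRNA sugar. CAF-1 mutants of Arabidopsis are known to lose rRNA gene copies over generations.

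AT2G01021 spans chr2:6571-6672 on the plus strand of TAIR10.1, a single exon of 102 bases that the RefSeq annotation calls an uncharacterized protein. It begins 625 bases after the 5.8S rRNA row AT2G01020 (chr2:5782-5945). The same 102 bases occur once more, at chr3:14200542-14200643, within the transcript AT3G06365 of the chromosome 3 rDNA, which was not analysed here. That copy also begins 625 bases after a 5.8S gene. Reads from either array cannot be told apart by this sequence, and how reads with several placements were counted is not given in the sources used here. Whether the AT2G01021 counts come from a transcript of its own or from pieces of longer rRNA was not tested. Its sequence and that of its 5.8S neighbour, both from RefSeq TAIR10.1, are shown because the levels of these rows are compared below.
AT2G01021: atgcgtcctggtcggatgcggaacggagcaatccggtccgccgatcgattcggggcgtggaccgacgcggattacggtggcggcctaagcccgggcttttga
AT2G01020: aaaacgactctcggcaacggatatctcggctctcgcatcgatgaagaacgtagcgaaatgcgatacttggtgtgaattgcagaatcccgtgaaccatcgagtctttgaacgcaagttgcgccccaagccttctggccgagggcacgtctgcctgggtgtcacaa

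The nucleolin and fibrillarin genes lie on separate chromosomes. NUC1 spans chr1:18098081-18101732 on the plus strand, and NUC2 spans chr3:6404053-6407946 on the minus strand. FIB1 spans chr5:21294147-21296819 and FIB2 chr4:13074090-13076432, both on the plus strand. Their exon lengths are 2089, 2252, 1380 and 1339 bases in the order NUC1, NUC2, FIB1 and FIB2. NUC1 overlaps AT1G48930 on the opposite strand, a row with 0 to 2 counts per library. Each fibrillarin gene holds a separately counted snoRNA gene on its own strand, AT5G52471 in FIB1 with 15 to 76 counts and AT4G25631 in FIB2 with 5 to 27 counts. The coding sequences of NUC1 and NUC2 are 74.0% identical over 1582 aligned bases, and those of FIB1 and FIB2 are 84.8% identical over 921. The longest stretches without a difference, which set how far short reads could be confused between copies, are shown from the RefSeq TAIR10.1 genome. The NUC stretch has 32 bases, from base 940 of the NUC1 coding sequence and base 1201 of that of NUC2, and the FIB stretch has 44, from base 520 of FIB1 and base 553 of FIB2.
NUC1 and NUC2 shared run: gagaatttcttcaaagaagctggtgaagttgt
FIB1 and FIB2 shared run: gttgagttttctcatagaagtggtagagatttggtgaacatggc

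Totals were 39258873 to 39510509 counts per library in the experiment with fas2-4 and 20700171 to 21902258 in the experiment with hira-1. FAS2 had 4.685, 4.448 and 5.917 CPM (counts scaled by library size, 12 libraries together) in fas2-4, against 6.623, 7.111 and 6.445 in Col-0 set 2, lower in all 3 libraries and not called (log2 fold change -0.40, SE 0.16, edgeR adjusted p = 0.156). HIRA had 235, 286 and 454 counts in the libraries labelled hira-1, against 223, 300 and 203 in Col-0 set 1 (log2 0.56, SE 0.30, edgeR adjusted p = 0.198, and log2 1.51 at an adjusted p of 0.049 corrected for exon length). Its transcript was thus no lower in them, the label is not borne out by it, and every direction below holds for libraries that carry the label. Of the root markers, EXPA7 had 0 counts in all 12 libraries, and COBL9 had 5 to 8 in fas2-4, 2 or 3 in Col-0 set 2 and 0 in every library of the other experiment. PHT1;1 had 43, 65 and 73 counts in fas2-4, against 46, 61 and 57 in Col-0 set 2, and 2, 3 and 8 in hira-1, against 1, 1 and 3 in Col-0 set 1. In bulk RNA of this kind, fewer cells of a type and less RNA per cell cannot be told apart.

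Within a library, levels per length are given as the deposited TPM scaled by a TMM library factor (TMM TPM), which were normalized separately in each experiment. The order was AT2G01021, FIB1, NUC1, FIB2 and NUC2 from high to low in all 4 groups. In fas2-4, AT2G01021 held 1179 to 1652 TMM TPM, FIB1 217.6 to 271.1, NUC1 160.2 to 180.8, FIB2 85.95 to 92.99 and NUC2 1.607 to 2.418. Neighbours in this order did not overlap in fas2-4, Col-0 set 2 or Col-0 set 1. In hira-1, AT2G01021 (165.4 to 1024 TMM TPM) overlapped FIB1 (193.8 to 210.8). NUC2 thus stood far below its paralogue in each group, while the fibrillarins were within the same order of magnitude.

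**Figure D1:**
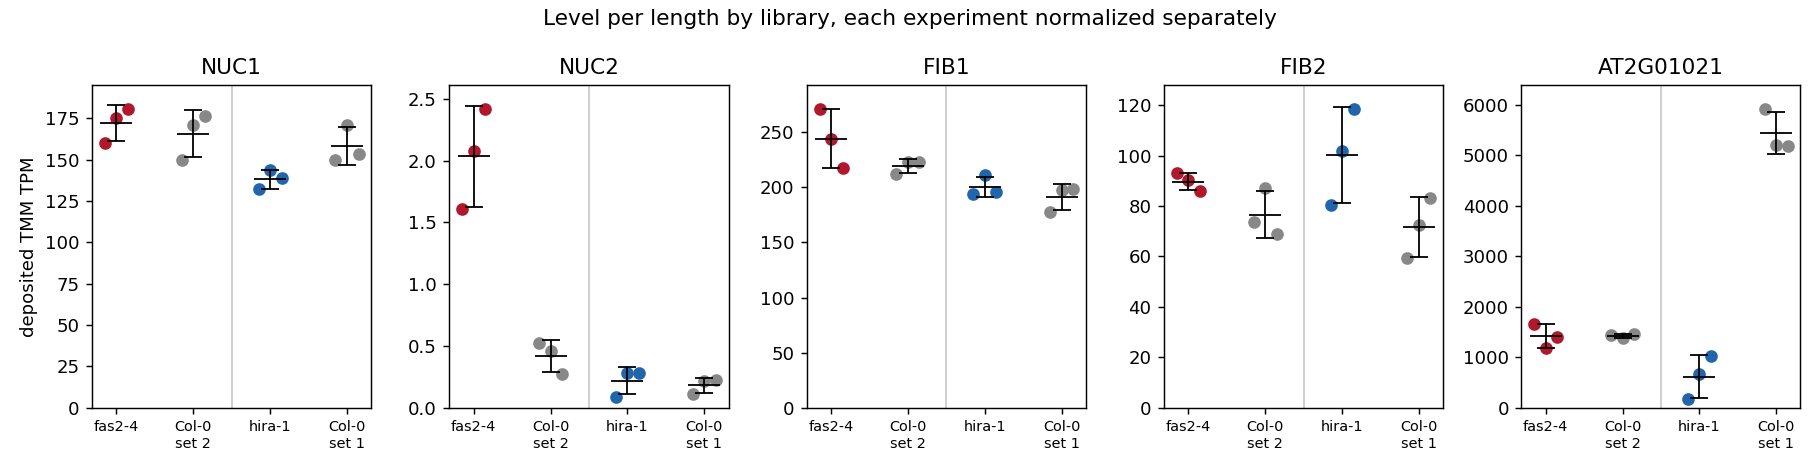
Deposited TMM TPM (y axis, from 0, a separate scale per gene) of the 5 genes in each of 12 libraries, with fas2-4 (red) and hira-1 (blue) each left of its own Col-0 set (grey). Points are libraries and bars the mean ± SD (n = 3). The 3 NUC2 points of fas2-4 lie above all others, and the 3 AT2G01021 points of hira-1 lie below those of Col-0 set 1.

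NUC2 rose about 5-fold in fas2-4. It had 97, 134 and 158 counts in the 3 fas2-4 libraries, against 31, 26 and 15 in Col-0 set 2. As TMM TPM these were 1.61, 2.08 and 2.42 in fas2-4 and 0.522, 0.456 and 0.271 in Col-0 set 2. All 3 fas2-4 libraries lay above all 3 wild-type libraries, as did those of 17.5% of the 20004 genes tested. The log2 fold change was 2.27 (SE 0.29, a fold of 4.84), with an edgeR adjusted p of 0.00276 over all genes tested. Of the 4 members tested NUC2 alone was called, where 9.74% of all genes tested were called. The call held without each library in turn, with log2 fold changes of 2.04 to 2.47. It also held under the 11 other settings, with log2 values of 1.09 to 2.29. The lowest of these are limma fits with a pseudocount of 1 TMM TPM, which lies near the level of NUC2 itself.

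NUC1 did not pass the test in fas2-4. It had 8969, 10498 and 10959 counts in fas2-4, against 8244, 9056 and 9066 in Col-0 set 2, and as TMM TPM the groups overlapped (160.2, 175.5 and 180.8 in fas2-4, 149.6, 171.2 and 176.5 in Col-0 set 2). The log2 fold change was 0.05 (SE 0.12, edgeR adjusted p = 0.844). The NUC2 share of nucleolin TMM TPM was 0.993%, 1.17% and 1.32% in fas2-4, against 0.348%, 0.266% and 0.153% in Col-0 set 2. Means were 1.16% ± 0.16 in fas2-4 and 0.256% ± 0.098 in Col-0 set 2 (SD, n = 3 each), a difference of 0.905 percentage points. The exact 2-sided permutation test gave p = 0.1, the smallest that 3 against 3 libraries allow.

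In the libraries labelled hira-1, NUC2 was too low for the test. It had 3, 10 and 9 counts there and 4, 8 and 8 in Col-0 set 1, and the groups overlapped. Its share of nucleolin TMM TPM was 0.0688%, 0.196% and 0.202% in hira-1 and 0.0746%, 0.124% and 0.145% in Col-0 set 1 (exact 2-sided permutation p = 0.5). With no filter on low counts the log2 fold change was 0.23 (edgeR adjusted p = 0.839). In the fit of all 12 libraries, the fas2-4 effect on NUC2 exceeded the hira-1 effect by 2.01 on the log2 scale (SE 0.61). That difference missed the threshold (edgeR adjusted p = 0.0503), where 11.6% of genes passed it. With the replicate numbers as a block the difference was 2.04 and passed (edgeR adjusted p = 0.026). Over the 12 fits that leave out 1 library, it passed in 2.

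NUC1 lay lower in all 3 libraries labelled hira-1, and the difference was not called. Its TMM TPM were 132.3, 143.8 and 139.0 in hira-1, against 150.04, 171.3 and 153.7 in Col-0 set 1. Groups that did not overlap with the mutant lower made up 19.2% of the 18739 genes tested. The log2 fold change was -0.20 (SE 0.15, edgeR adjusted p = 0.357).

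For the nucleolins, the 250 bases before each gene start are shown, since they differ in the motifs found and NUC2 is the member that rose. The motifs were picked with the levels known. They are the telo box AAACCCTA and the site II words TGGGCC and TGGGCT, both known from promoters of ribosome genes, and CTTNNNNNNNAAG, the motif bound by SOG1, a transcription factor of the DNA damage response. Both strands were searched, and matches are in capitals.
NUC1, chr1:18097831-18098080, plus strand: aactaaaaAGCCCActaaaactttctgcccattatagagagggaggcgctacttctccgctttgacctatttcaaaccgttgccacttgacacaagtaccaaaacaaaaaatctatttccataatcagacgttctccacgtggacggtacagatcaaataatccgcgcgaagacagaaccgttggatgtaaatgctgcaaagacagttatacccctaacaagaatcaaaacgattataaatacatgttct
NUC2, chr3:6407947-6408196, minus strand: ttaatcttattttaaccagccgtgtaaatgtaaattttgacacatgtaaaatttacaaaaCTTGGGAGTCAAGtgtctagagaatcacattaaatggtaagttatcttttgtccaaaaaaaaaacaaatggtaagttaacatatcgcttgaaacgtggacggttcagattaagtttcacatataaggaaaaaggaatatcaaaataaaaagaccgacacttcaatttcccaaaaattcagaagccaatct
NUC1 held 1 site II word, 242 bases before the gene start. NUC2 held 1 match to the SOG1 motif, 190 bases before its start, and neither other motif. Among 27443 protein-coding genes, 19.2% held a site II word, 9.71% a SOG1 match and 4.49% a telo box in this window. FIB1 held 1 telo box and 2 site II words, and FIB2 held none of these motifs. At least 1 telo box together with at least 1 site II word was found in 1.36% of genes. These matches describe the sequence only.

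FIB1 and FIB2 did not pass the test in fas2-4. FIB1 had 271.1, 243.9 and 217.6 TMM TPM in fas2-4, against 212.4, 223.3 and 222.6 in Col-0 set 2. FIB2 had 92.99, 90.23 and 85.95 TMM TPM in fas2-4, against 73.75, 87.02 and 68.90 in Col-0 set 2. On this scale the groups overlapped for both genes by 1 library each. The log2 fold changes were 0.15 for FIB1 (SE 0.12, edgeR adjusted p = 0.514) and 0.23 for FIB2 (SE 0.12, edgeR adjusted p = 0.307). FIB2 made up 27.0% ± 1.4 of fibrillarin TMM TPM in fas2-4 and 25.8% ± 2.2 in Col-0 set 2 (SD, n = 3 each, exact 2-sided permutation p = 0.5).

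In the libraries labelled hira-1, FIB2 was higher than in the same-numbered Col-0 library in all 3 pairs, and whether it was called depended on the pairing. Its counts were 1570, 2144 and 2257 in hira-1, against 1258, 1620 and 1774 in Col-0 set 1. As TMM TPM it had 80.43, 101.7 and 118.5 in hira-1, against 59.32, 72.49 and 83.05 in Col-0 set 1, so the groups overlapped. The ratios within pairs were 1.38, 1.33 and 1.47. Without the pairing the log2 fold change was 0.48 (SE 0.21, edgeR adjusted p = 0.13), and 13.7% of all genes tested were called. With the replicate number as a block it was 0.47 (SE 0.11, edgeR adjusted p = 0.000931), and 51.2% of genes were then called. With a smooth correction for exon length it was 0.25 (edgeR adjusted p = 0.358), and with that correction and the block 0.25 (edgeR adjusted p = 0.0528).

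FIB1 did not pass the test in the same libraries. It had 193.8, 210.8 and 196.0 TMM TPM in hira-1, against 177.8, 197.1 and 198.6 in Col-0 set 1 (log2 fold change 0.06, SE 0.15, edgeR adjusted p = 0.792). Corrected for exon length, its log2 value turned to -0.14, again not called. FIB2 therefore made up a larger share of fibrillarin in each hira-1 library than in its numbered partner, 29.3%, 32.5% and 37.7% in hira-1 against 25.02%, 26.9% and 29.5% in Col-0 set 1. The means were 33.2% ± 4.2 in hira-1 and 27.1% ± 2.2 in Col-0 set 1 (SD, n = 3 each, exact 2-sided permutation p = 0.2, where 0.1 is the smallest possible). The fas2-4 effect on FIB2 did not differ detectably from the hira-1 effect (log2 difference -0.26, SE 0.24, edgeR adjusted p = 0.449).

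**Figure D2:**
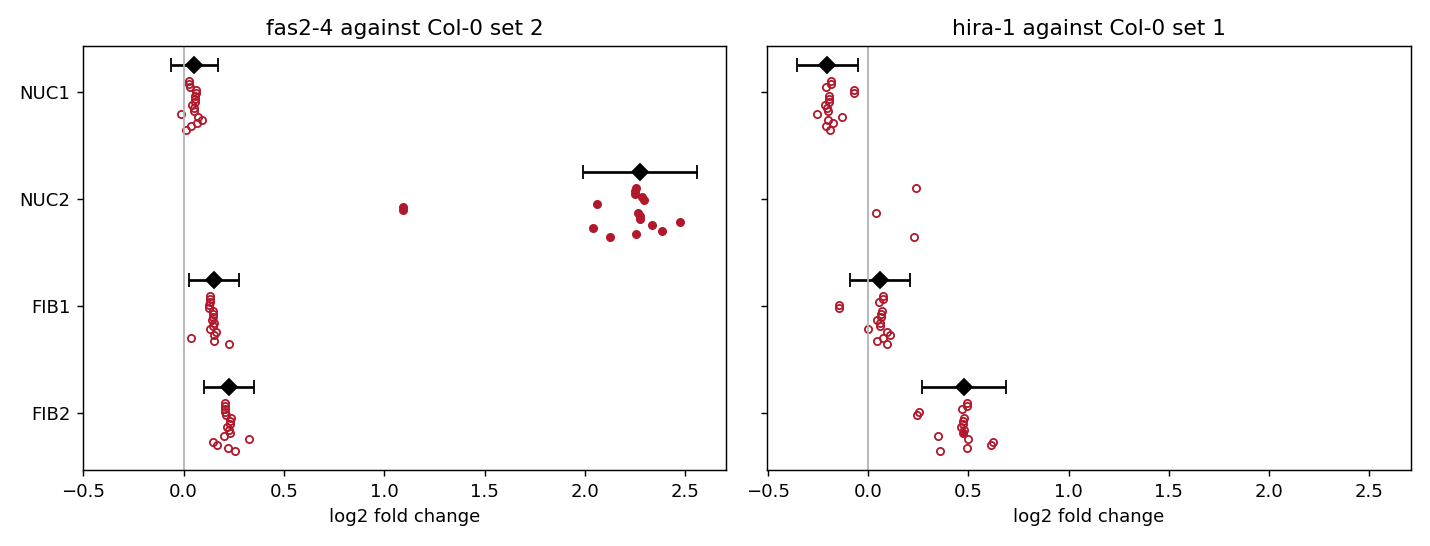
Log2 fold change (x axis) of NUC1, NUC2, FIB1 and FIB2 in fas2-4 against Col-0 set 2 (left) and hira-1 against Col-0 set 1 (right). Black diamonds are the edgeR values with ± 1 SE, and red circles the same value under each other setting, filled where the adjusted p was under 0.05. Every NUC2 circle on the left is filled, and 1 FIB2 circle on the right is, the fit with the replicate block. The 3 NUC2 circles on the right come from fits that kept its low counts.

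AT2G01021, the member inside the rDNA, was high in Col-0 set 1 and low in hira-1, and its levels in fas2-4 and Col-0 set 2 overlapped. It had 246, 1065 and 1485 counts in hira-1, against 9559, 8868 and 8443 in Col-0 set 1. Every hira-1 library lay below every library of Col-0 set 1, as was so for 19.2% of the 18739 genes tested. The hira-1 libraries differed among themselves about 6-fold. The fold was 0.114 (log2 -3.14) and ranged from -3.71 to -2.69 on the log2 scale without each library in turn. It was -4.21 with the length correction and -4.36 with that correction and the replicate block. It had 4515, 3444 and 4163 counts in fas2-4, against 3874, 3579 and 3655 in Col-0 set 2, and those groups overlapped (fold 0.988). None of the 5 members lay wholly below its wild type in fas2-4 (14.2% of all genes did) or wholly above it in hira-1 (19.4% of all genes did).

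The wild-type sets also differed from each other for AT2G01021. With all 12 libraries scaled together, it had 93.99, 88.99 and 93.11 CPM in Col-0 set 2, against 475.0, 422.9 and 414.9 in Col-0 set 1. That is a fold of 0.21, and this comparison shares Col-0 set 1 with that of hira-1. Hira-1 libraries, with 13.34, 52.75 and 80.90 CPM, lay below both wild-type sets. The wild-type sets differ in experiment and depth, which cannot be told apart here, and 33.6% of the 19365 genes tested were called between them. Cell type markers were among these. The root marker PHT1;1 was higher in Col-0 set 2 (log2 4.00, edgeR adjusted p = 0.000341), as were 2 of 5 dividing-cell markers, CDKB2;1 (0.77) and CYCB1;2 (0.80), and 2 of 4 shoot markers were lower, CA1 (-0.77) and LHCB2.1 (-1.10). Their part in the AT2G01021 difference was not tested. None of NUC1, NUC2, FIB1 and FIB2 was called between the sets, with log2 values of -0.26, 0.86, -0.12 and -0.22 in that order and edgeR adjusted p of 0.131 to 0.419.

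In hira-1 the other rRNA rows did not follow AT2G01021 in size. Between the wild-type sets the 18S rows were also lower in Col-0 set 2, without overlap. Their folds against Col-0 set 1 were 0.306 (AT2G01010) and 0.366 (AT3G41768), and that of AT2G01020 was 0.818. The rDNA region rows together took 0.191%, 0.186% and 0.168% of counts in Col-0 set 2. In Col-0 set 1 they took 0.539%, 0.618% and 0.358%. Of 15 reference rows at this locus and its chromosome 3 copies, 8 were analysed here. The 18S row AT2G01010 had 14549, 18865 and 33271 counts in hira-1, against 46771, 56460 and 30726 in Col-0 set 1. Its near-identical copy AT3G41768 (99.9% identity) had 16771, 23730 and 41928 in hira-1 and 59587, 69358 and 38224 in Col-0 set 1. For both rows hira-1 replicate 3 overlapped Col-0 set 1 replicate 3, and the folds were 0.549 and 0.544. Per 1000 counts of both 18S rows together, AT2G01021 had 7.85, 25.003 and 19.7 in hira-1, against 89.9, 70.5 and 122 in Col-0 set 1. On that scale it was also below wild type in each hira-1 library. In fas2-4 the same ratio was 65.7, 48.7 and 49.5, against 55.1, 52.0 and 59.5 in Col-0 set 2, and the groups overlapped.

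The 5.8S row AT2G01020 behaved differently from both. It had 2358, 2023 and 1991 counts in fas2-4, against 1000, 1052 and 995 in Col-0 set 2. No libraries overlapped, and the fold was 1.89. In hira-1 it had 648, 645 and 771 counts, against 581, 672 and 644 in Col-0 set 1, and the groups overlapped (fold 1.19). Per 1000 counts of both 18S rows it had 20.7, 15.1 and 10.3 in hira-1, against 5.46, 5.34 and 9.34 in Col-0 set 1. The groups did not overlap on that scale, where the 18S counts also enter. In fas2-4 it then had 34.3, 28.6 and 23.7, against 14.2, 15.3 and 16.2 in Col-0 set 2. Its identical copy AT3G41979 had 0 counts in all 12 libraries. Other rows of the locus were higher in fas2-4 as well. AT2G01008, which lies before the 18S gene (chr2:1025-3173), had 128, 105 and 101 counts in fas2-4, against 39, 31 and 31 in Col-0 set 2 (fold 3.01). AT2G01023, on the minus strand at chr2:9648-9767, had 9, 13 and 11 counts in fas2-4, against 2, 0 and 1 in Col-0 set 2. The miRNA precursor row AT2G03855, which overlaps AT2G01008, had 2, 3 and 1 counts in fas2-4 and 0 in every other library. So the 18S rows and AT2G01021 overlapped between fas2-4 and its wild type, and the 5.8S row and 3 low rows did not. Of the 20004 genes tested, 17.5% also lay wholly higher in fas2-4, and AT2G01023 and AT2G03855 had very few counts.

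**Figure D3:**
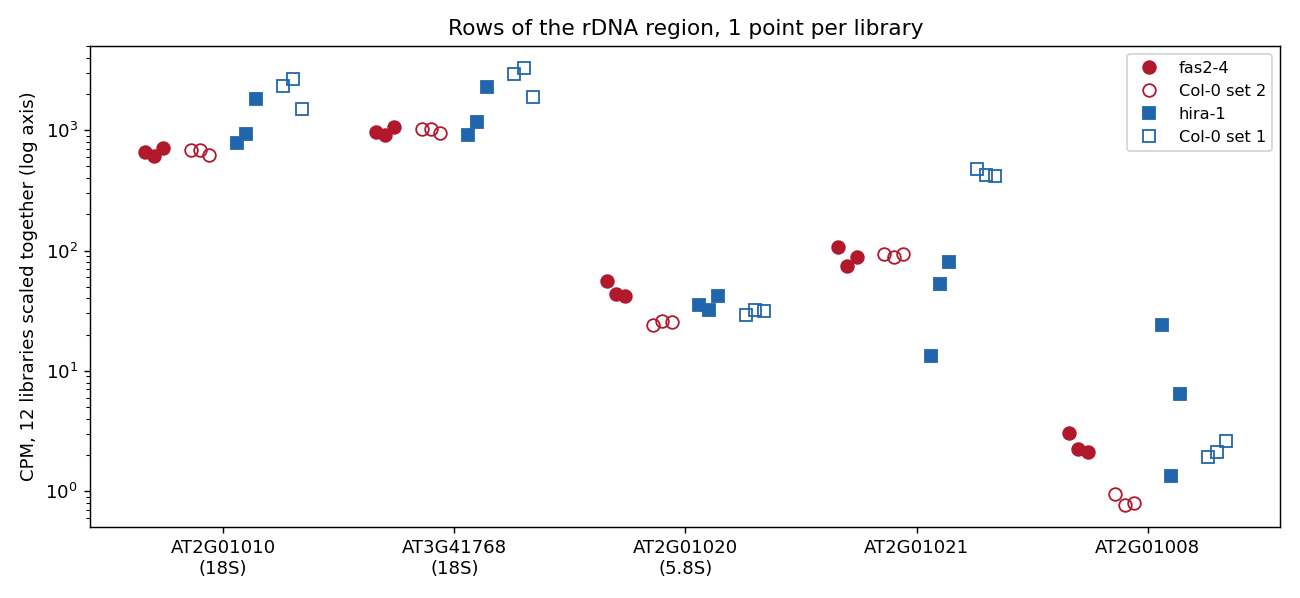
CPM of 5 rows of the rDNA region on a log axis, with all 12 libraries scaled together. Filled symbols are fas2-4 (red circles) and hira-1 (blue squares), each left of its own Col-0 set (open symbols of the same shape). AT2G01021 is lowest in hira-1 replicate 1 at 13.34 CPM, while that library is highest for AT2G01008 at 24.02 CPM.

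The hira-1 libraries differed from one another in this region. AT2G01008 had 443, 27 and 119 counts in hira-1, against 39, 44 and 53 in Col-0 set 1. Replicate 1 of hira-1 was thus far above wild type, replicate 3 also above it and replicate 2 below it. The gene AT3G41762 on chromosome 3, which was noticed after its values were seen, had 412, 10 and 53 counts in hira-1 and 44, 55 and 66 in Col-0 set 1. Replicate 1 of hira-1 had the fewest AT2G01021 counts. Rows with identifiers beginning ATCG or ATMG, 285 in all and without a match in the reference table, moved with AT2G01021 in part. They took 0.0796%, 0.111% and 0.252% of counts in hira-1, against 0.446%, 0.458% and 0.297% in Col-0 set 1. In fas2-4 they took 0.117%, 0.0797% and 0.106%, against 0.135%, 0.117% and 0.087% in Col-0 set 2. Their part in the AT2G01021 difference was not tested.

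For each member, the 3 genes with the closest profile were found among 13855 genes with a mean of at least 5 CPM. The measure was the root mean square (RMS) difference of centred log2(CPM + 1) over 12 libraries. For AT2G01021 these were ATCG00920, ATCG01210 and ATMG00020, at 0.535, 0.536 and 0.621, where its own RMS deviation from its mean is 1.37. The prefix ATCG is of the chloroplast type and ATMG of the mitochondrion type. ATCG00920 had 812, 1271 and 2833 counts in hira-1, against 10758, 9564 and 6165 in Col-0 set 1. ATCG01210 had almost the same, 813, 1274 and 2833 against 10754, 9574 and 6168. These rows therefore do not count as separate neighbours. For NUC2 they were UNE18 (AT5G02100), EDA18 (AT2G34920) and FRUCT5 (AT1G55120), at 0.208, 0.224 and 0.229 with an own deviation of 0.641. NUC2 had 0.163 to 3.33 CPM, so the 1 added to CPM narrows its differences more than those of these genes. UNE18, annotated as an oxysterol-binding family protein, had 513, 585 and 555 counts in fas2-4, against 245, 247 and 190 in Col-0 set 2. The closest to FIB2 were AS2, RPS2 and AT3G57000, a nucleolar essential protein-like gene, at 0.10, 0.109 and 0.112. NUC1 and FIB1 hardly varied (own deviations 0.123 and 0.11), so the 3 genes nearest to each lay at 0.0694 to 0.0939 and do not single out a pattern.

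Genes that work with the members were counted in 5 lists of 68 genes, chosen with earlier results of these data known. In fas2-4, none of the 67 tested was called by edgeR, against 9.74% of all genes tested. At an unadjusted p under 0.05 there were 8, and DESeq2 called 1, DDM1, a chromatin remodeller that keeps DNA methylation. Of all 20004 genes tested, 5082 had such an unadjusted p and DESeq2 called 2980. By list the tested members were 7 box C/D partners of fibrillarin (median log2 fold change 0.10), 5 box H/ACA proteins (0.08), 10 genes of RNA polymerase I and its initiation (-0.02), 30 pre-rRNA processing and assembly genes (-0.10) and 15 genes of rRNA gene silencing and nucleolar chromatin (0.23). The median of all genes tested was 0.03. DDM1 was also called by edgeR with no filter on low counts (log2 0.80, edgeR adjusted p = 0.0476). With the length correction edgeR called 4 of these genes, DDM1 and HDT3 higher and RTL2 and DIM1A lower, against 16.5% of all genes tested. Leaving out fas2-4 replicate 1 gave 10 calls, where 28.0% of all genes tested were then called. Of these, RRP5, DCL3, RDR2, NRPD1, SUVR4, MET1 and DDM1 were higher, and PES, RTL2 and DIM1A were lower.

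Markers of other cell types moved in the fas2-4 comparison, where 9.74% of all genes tested were called. Of 5 dividing-cell markers, CDKB2;1, CDKB2;2 and CYCB1;4 rose (log2 0.95, 0.70 and 0.65, edgeR adjusted p of 0.00229, 0.00705 and 0.0365), and the summed TMM TPM of all 5 was 107 to 136 in fas2-4 and 71.1 to 78.7 in Col-0 set 2. Of 4 shoot markers, RBCS1A fell (log2 -0.58, edgeR adjusted p = 0.0344), with sums of 42500 to 45700 in fas2-4 and 56700 to 72600 in Col-0 set 2. The 3 root markers summed to 0.913 to 1.33 in fas2-4 and 0.917 to 1.25 in Col-0 set 2. The part of these in the NUC2 rise was not tested.

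In the libraries labelled hira-1, 6 of 66 tested list genes rose and 8 fell, 21.2% of them, against 13.7% of all genes tested. With the replicate block these counts were 15 and 33, 72.7% against 51.2% of all genes. With the length correction they were 4 and 6, 15.2% against 9.93% of all genes. All 3 genes of SNU13, the protein that first binds box C/D snoRNAs, were called higher among 7 box C/D partners (median log2 -0.18). SNU13a had 4179, 4529 and 5108 counts in hira-1, against 1469, 2107 and 2117 in Col-0 set 1 (log2 1.40, SE 0.20, edgeR adjusted p = 0.0175). SNU13c and SNU13b had log2 fold changes of 1.12 and 0.94 (edgeR adjusted p of 0.023 and 0.0343). The libraries of both groups did not overlap for any of the 3, where 19.4% of all genes tested lay wholly higher in hira-1. With the length correction SNU13a and SNU13c were still called (log2 0.99 and 0.88, edgeR adjusted p of 0.011 and 0.0175) and SNU13b was not (0.42, edgeR adjusted p = 0.105). The scaffold proteins NOP56 and NOP58, the other core partners of fibrillarin, were not called without the pairing. With the replicate block NOP56, NOP58-1 and NOP58-2 were called lower (log2 -0.62, -0.63 and -0.57, edgeR adjusted p of 5.54e-05, 0.000149 and 0.000432). They stayed called with the block and the length correction together (edgeR adjusted p of 0.000256, 0.0032 and 0.00822). For all 3 the hira-1 libraries lay wholly below those of Col-0 set 1, as they did for 19.2% of all genes tested. NOP56-like was not called with the block (edgeR adjusted p = 0.537).

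Of the box H/ACA proteins, which guide pseudouridylation, NHP2 rose among 4 tested (log2 0.68, edgeR adjusted p = 0.0449, list median 0.27). Its call was lost with the length correction (0.44, edgeR adjusted p = 0.0717). In this comparison edgeR called 13.7% of all genes tested, the share to set beside each list count here. No gene of RNA polymerase I was called among 10 by edgeR (median -0.08), where 4 had an unadjusted p under 0.05, DESeq2 called 3 and the replicate block called 8. Of all 18739 genes tested, 6824 had such an unadjusted p, DESeq2 called 4502 and the block called 9593. In pre-rRNA processing and assembly, 1 of 30 rose and 6 fell (median -0.66, against -0.02 for all genes tested). RTL2, an RNase III that cuts the precursor in its external spacer, had 21, 13 and 17 counts in hira-1, against 129, 111 and 134 in Col-0 set 1 (log2 -2.74, SE 0.32, edgeR adjusted p = 0.00731, and -2.90 after correcting for length). RH29, a DEAD-box RNA helicase, had 32, 44 and 25 counts in hira-1, against 171, 221 and 79 in Col-0 set 1 (log2 -2.11, SE 0.40, edgeR adjusted p = 0.023). IMP4, a protein of the small-subunit processome, had 1023, 1035 and 1290 counts in hira-1, against 568, 659 and 738 in Col-0 set 1 (log2 0.90, SE 0.20, edgeR adjusted p = 0.03). The length correction kept the calls of all 3.

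Among 15 genes of rRNA gene silencing and nucleolar chromatin, 1 rose and 2 fell (median -0.24), where 13.7% of all genes tested were called. HDT1, a plant-specific nucleolar histone deacetylase, rose by 0.66 on the log2 scale (edgeR adjusted p = 0.0382). MET1, the maintenance DNA methyltransferase, and MBD10, a methyl-CpG-binding-domain protein, fell by 1.33 and 1.44 (edgeR adjusted p of 0.0392 and 0.0405). With the length correction the HDT1 and MET1 calls were lost (0.48 and -0.40, edgeR adjusted p of 0.0767 and 0.21) and that of MBD10 was kept (-1.42, edgeR adjusted p = 0.0439). All counts of calls in this comparison rest on few libraries. Without Col-0 set 1 replicate 1, replicate 2 or hira-1 replicate 1 in turn, 0, 1 and 1 list genes were called, without hira-1 replicate 3 there were 3, and without hira-1 replicate 2 there were 31. Over all 19007 to 19068 genes tested, the same fits called 19, 50, 29, 443 and 5021 in that order, so the list counts moved with those of all genes.

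**Figure D4:**
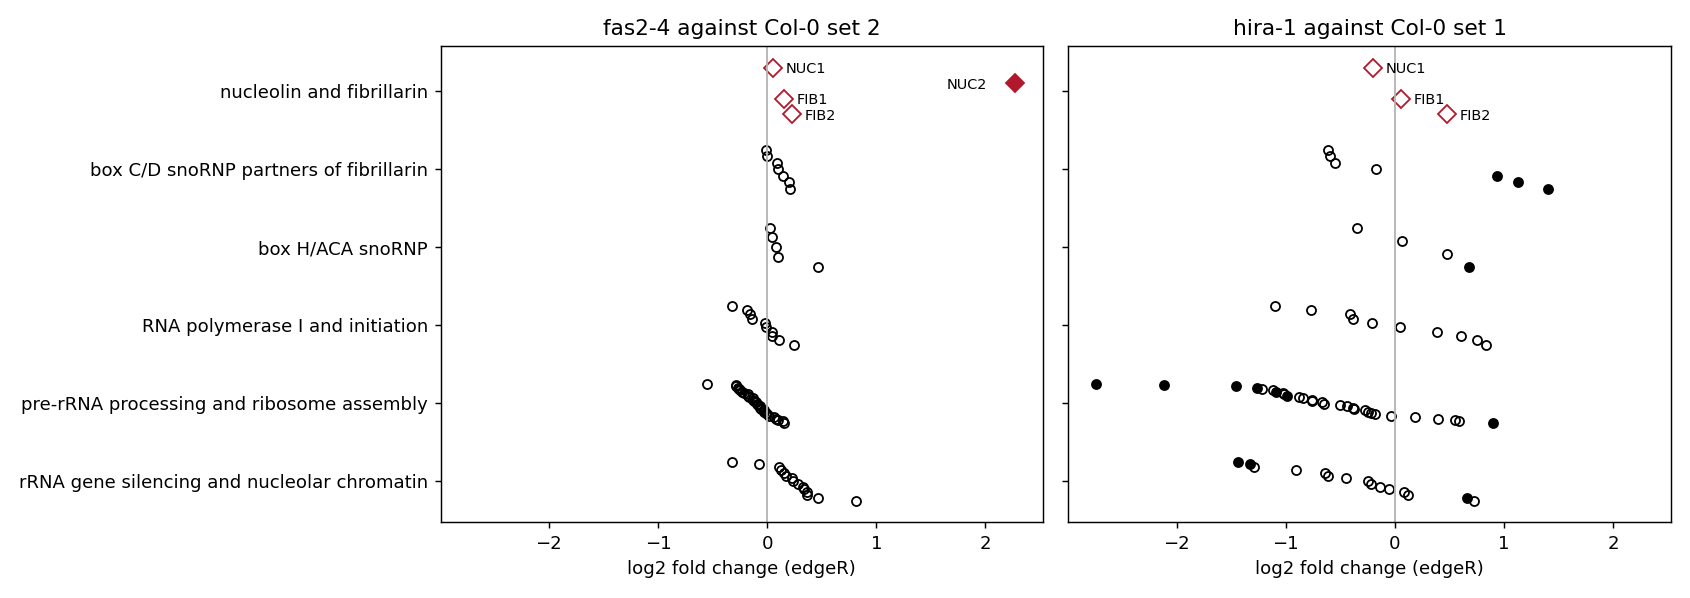
Log2 fold change (edgeR, x axis) of NUC1, NUC2, FIB1 and FIB2 (red diamonds) and of each tested gene of 5 nucleolar lists (circles), in fas2-4 against Col-0 set 2 (left) and hira-1 against Col-0 set 1 (right). Filled symbols have an adjusted p under 0.05. On the left only NUC2, at 2.27, is filled, and on the right 14 list genes are, from RTL2 at -2.74 to SNU13a at 1.40. NUC2 is absent on the right because its counts were too low to test.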

How the data were processed

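The authors deposited, per experiment, a table of read counts per gene and a table of TMM TPM, a score made from TPM and a TMM library factor. The submitters' processing notes name fastp 0.23.4, HISAT2 2.2.1 and the TAIR10 build. The counting software, annotation and use of strand are not given in the sources used here. All 24 value columns were used. Of 32833 genes, 32548 matched TAIR10.1 (RefSeq), and at least 99.44% of genes with at least 200 counts had deposited TPM that fit the reference exon length within 2%.

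From the deposited counts, edgeR 4.0.16 was run after filterByExpr and TMM scaling (glmQLFit, robust, glmQLFTest, 2-sided) in R 4.3.3, with Benjamini-Hochberg adjustment over all genes tested. A gene was called at an adjusted p under 0.05. DESeq2 1.42.0, limma 3.58.1 on log2(TMM TPM + 1) and + 0.1, RLE scaling, no filter, removal of rDNA rows, an exon length correction, 1 fit of 12 libraries, a replicate block and leaving out each library were the other settings. Shares were tested with an exact permutation test in scipy 1.17.1. The fits were tested on simulated data.

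Same-numbered libraries of the hira-1 experiment deviated together (correlations 0.281, 0.536 and 0.637). The numbers were used as pairs only in the replicate block and in ratios within pairs, and the main fits took no account of them. No 2 libraries were duplicates (chi-square per degree of freedom 12.45 to 81.08). The members and lists were chosen with earlier results of these data known. Named genes are the members, every rDNA row analysed, HIRA, FAS2, up to 3 called genes with the smallest adjusted p per list and mutant, and the 3 closest profiles per member. Other list genes and AT3G41762 were named after their values were seen, as were the motifs.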

Additional observations from a re-analysis of the deposited data

Results flagged for a closer look

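The effects of the mutants differed, by the edgeR test of the difference over 12 libraries, for 5 genes named from the lists, and for none of NUC1, NUC2, FIB1 and FIB2. The box C/D protein genes SNU13a and SNU13c had a fas2-4 effect below the hira-1 effect by log2 differences of -1.41 (edgeR adjusted p = 0.0115) and -1.03 (edgeR adjusted p = 0.03). IMP4 also differed in that direction, by -0.99 (edgeR adjusted p = 0.0288). RTL2 and RH29 differed the other way, by 2.19 (edgeR adjusted p = 0.00357) and 2.06 (edgeR adjusted p = 0.0293). The fas2-4 effects on the log2 scale were 0.00 for SNU13a, 0.10 for SNU13c, -0.08 for IMP4, -0.55 for RTL2 and -0.03 for RH29. None of these passed the test in fas2-4 on its own. They were named because they were called in hira-1, whose libraries also enter this contrast. Over all lists, 7 of 67 genes (10.4%) were called for the difference, near the 11.6% of all genes tested. Of 12 fits that leave out 1 library, the call was kept in 12 for SNU13a and RTL2, 5 for IMP4, 4 for SNU13c and 3 for RH29. The contrast sets each mutant against the wild type of its own experiment.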

How the results depend on the processing

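The NUC2 rise in fas2-4 kept its direction and its call under all 11 other settings and all 6 fits without a library. NUC1, FIB1 and FIB2 stayed uncalled in all of these. In fas2-4, NUC1 turned to -0.014 without Col-0 set 2 replicate 1 (-0.014 to 0.09 without each library). In hira-1, FIB1 turned to -0.14 with the length correction, to -0.14 with that correction and the replicate block, and to -0.002 without Col-0 set 1 replicate 1 (-0.002 to 0.112 without each library). FIB2 in hira-1 was called with the replicate block alone (0.47). The effect difference turned to -0.026 for FIB1 without fas2-4 replicate 1 (-0.026 to 0.167 without each library). For NUC2 it passed with the replicate block (2.04) and without hira-1 replicate 2 or fas2-4 replicate 1, with a range of 1.67 to 2.26 without each library. AT2G01021 between the wild-type sets moved to -2.56 with the length correction, and in hira-1 to -4.21, or -4.36 with the replicate block as well.

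Counts of called genes in fas2-4 were 1948, or 3302 with the length correction, 3093 with that and the replicate block, 2980 with DESeq2, 1117 with 12 libraries in 1 fit and 643 to 5661 without each library. In hira-1 they were 2575, or 9593 with the replicate block, 7161 with block and length correction, 4502 with DESeq2, 1361 with limma and no filter, 5999 with 12 libraries and 19 to 5021 without each library. Between wild-type sets they were 6498 (3593 to 7608 without each library), and for the effect difference 2331 (6461 with the replicate block, 723 to 4844 without each library). Called list genes in fas2-4 were 0, or 1 with no filter, 4 with the length correction, 2 with that and the block, 1 with DESeq2 and 0 to 10 without each library. In hira-1 they were 14, or 48 with the block, 38 with block and length correction, 27 with DESeq2, 6 with limma and no filter, 28 with 12 libraries and 0 to 31 without each library. These list counts were added after the data were seen, and the cause of the moves was not tested. In the fas2-4 experiment same-numbered libraries share only a number (correlations -0.066, 0.163 and 0.006), and the replicate block gave 1465 calls there and changed no member's call. NUC2 counts of 3 to 31 outside fas2-4 limit its precision.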
